A study of Mus musculus with 4 samples.

Results

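Pseudogenes of the proteins of the small ribosomal subunit were followed in RNA from stem cell exosomes. Rows of the gene table typed as pseudogene whose description contained "ribosomal protein S" were taken, which gave 508 of 42977 genes. By the protein named in the description, 494 of them were copies of 32 cytosolic proteins (Rps genes) and 14 were copies of 9 mitochondrial ones (Mrps genes). The MSCATV-Exo group held 2 libraries of exosomes from bone marrow mesenchymal stem cells (MSCs) of male SD rats, pretreated with 1 µmol/L atorvastatin, a statin that inhibits cholesterol synthesis. The MSC-Exo group held 2 libraries from the same kind of cells given the solvent DMSO. Donor rats were 6 to 8 weeks old and cells were at passages 3 to 4 in both groups. Pretreatment lasted 24 h by one field of the labels and 48 h by another. The labels register the samples as mouse although the culture protocol and the genome build are of rat. No separate animals or cultures are named behind the 2 libraries of a group, so errors and p-values cover only the spread between these libraries.

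The small, or 40S, subunit of the cytosolic ribosome decodes messenger RNA, and each of its proteins is in most cases made from 1 active gene. The transcripts of ribosomal protein genes are short and abundant, and in mammals they have often been copied back into DNA and inserted elsewhere in the genome. Such processed pseudogenes lack introns, resemble the spliced parent transcript, and mostly have no promoter of their own. Reads from the parent can therefore also match its pseudogenes. How the authors' counting assigned reads with several matches is not given in the sources used here, so every count of a pseudogene below is uncertain between the copy, its parent and other copies. In vesicle RNA, fewer vesicles that carry a transcript and fewer copies per vesicle cannot be told apart.

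The gene table held 5947020 and 5598378 counts in the MSCATV-Exo libraries, against 5350295 and 5355098 in the MSC-Exo libraries. Counts are also given as CPM, scaled to a common library total, and where no read was counted up to 3 reads remain possible, which is 0.504 to 0.561 CPM and covers counting error only. Among 9 MSC markers Thy1, Itgb1 and Col1a1 stood above 8.17 RPKM, a level set at 3 times that of the median olfactory receptor gene, and Col1a2 was at 0 in all libraries. The summed MSC markers were at 388 and 496 CPM in MSCATV-Exo, against 412 and 513 CPM in MSC-Exo. None of 6 leukocyte and none of 4 endothelial markers passed that level, and 1 of 4 erythroid markers, Hba-a1, did. The summed leukocyte markers were at 52.3 and 61.8 CPM in MSCATV-Exo, against 80.0 and 56.4 CPM in MSC-Exo, and the part of other cells in the results was not tested.

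Many of the pseudogenes had an annotated length near the parent's, and they were unevenly spread over the parents. The 32 cytosolic families held 1 to 35 pseudogenes with a median of 15.5, and 7 of the 9 mitochondrial families held 1. The largest were those of Rps2, with 35 copies, Rps10, with 26, and Rpsa, with 25. Rps4y2 had 1 copy. The annotated length ran from 149 to 8458 bases with a median of 581.5. In the median it was 94.0% of the parent's length, and 272 copies lay within 80% to 120% of it. For 67 entries it was more than 2 times the parent's length. The annotation gave 412 of the 508 as a single block without introns. There were 33 with an official pseudogene symbol such as Rps27a-ps7, while 201 were described only as similar to the protein. Another gene overlapped 144 of the pseudogenes, and for 111 this was a protein-coding gene and for 35 a second pseudogene entry.

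The pseudogenes were detected at low levels, with medians between those of olfactory receptor genes and those of all genes. Olfactory receptor genes work in the nose and serve here as a measure of background. In RPKM, a level per length that the authors deposited, the median pseudogene was at 2.10 and 2.97 in MSCATV-Exo, against 2.76 and 3.06 in MSC-Exo. Olfactory receptor genes had medians of 1.71 and 2.28 RPKM in MSCATV-Exo, against 2.48 and 2.36 RPKM in MSC-Exo. All 42977 genes had medians of 3.31 and 3.78 RPKM in MSCATV-Exo, against 4.06 and 3.91 RPKM in MSC-Exo. The parent Rps genes, in contrast, had medians of 98.6 and 99.6 RPKM in MSCATV-Exo, against 81.6 and 97.2 RPKM in MSC-Exo. Above 8.17 RPKM were 31 pseudogenes (6.10%), beside 3.62% of olfactory receptor genes, 7.02% of the 897 pseudogenes of large-subunit proteins, 8.20% of 5686 other pseudogenes and 87.9% of the parent rows. That level was passed by 10.2% of all genes and 13.3% of protein-coding genes.

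**Figure D1:**
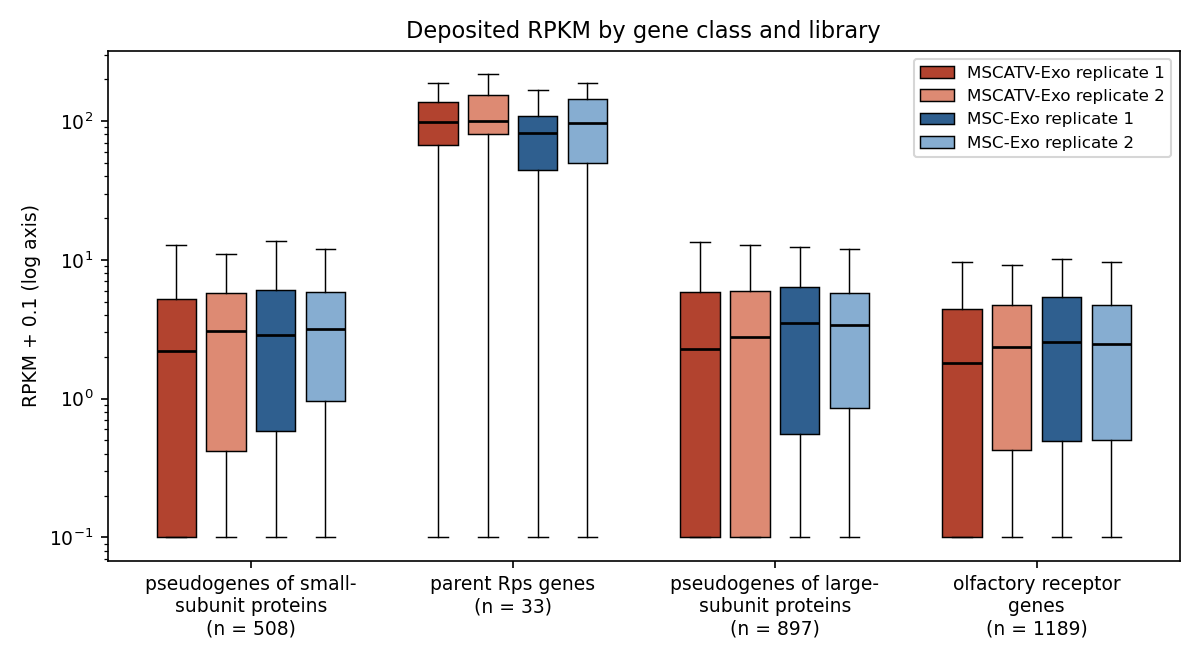
Deposited RPKM plus 0.1 on a log axis, by gene class, for each of the 4 libraries (boxes: percentiles 25 to 75 with the median as a line; whiskers: percentiles 5 and 95). The pseudogenes, with medians of 2.10 to 3.06 RPKM, lie close to the olfactory receptor genes and far below the parent genes in every library.

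At least 1 read was counted on 348 and 384 pseudogenes in MSCATV-Exo, against 387 and 410 in MSC-Exo. All 4 libraries detected 245 of them, and 40 had no read in any. Counts followed length: across the 508 pseudogenes the Spearman correlation of the mean count with length was 0.61, whereas that of mean RPKM with length was 0.08. The 31 entries longer than 2000 bases held 25.5% of the reads, and the 10 with the highest mean CPM held 12.6%. All of these 10 were longer than 2000 bases. The highest was LOC108349053, an Rps19 copy of 7695 bases (rn6, chr20:19182200-19189894, minus strand), with 335 and 150 counts in MSCATV-Exo, against 180 and 159 in MSC-Exo. Its level per length was only 7.32 and 3.48 RPKM in MSCATV-Exo, against 4.37 and 3.86 RPKM in MSC-Exo.

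Next was LOC102547345, described as like Rps3, a protein at the entry of the messenger RNA channel, with 97 and 102 counts in MSCATV-Exo, against 243 and 85 in MSC-Exo. The Rps9 copy LOC102555843 had 92 and 88 counts in MSCATV-Exo, against 172 and 139 in MSC-Exo, and the Rps29 copy LOC108349587 had 65 and 77, against 144 and 133. In these last 2 the groups did not overlap, with log2 fold changes of -0.79 ± 0.40 and -0.97 ± 0.43 (SE of the edgeR fit). LOC108349587 overlaps Pcsk6, a protein-coding gene on the other strand with 232 and 82 counts in MSCATV-Exo, against 105 and 153 in MSC-Exo. The library kit does not mark the strand, so reads of such a pair cannot be told apart.

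**Figure D2:**
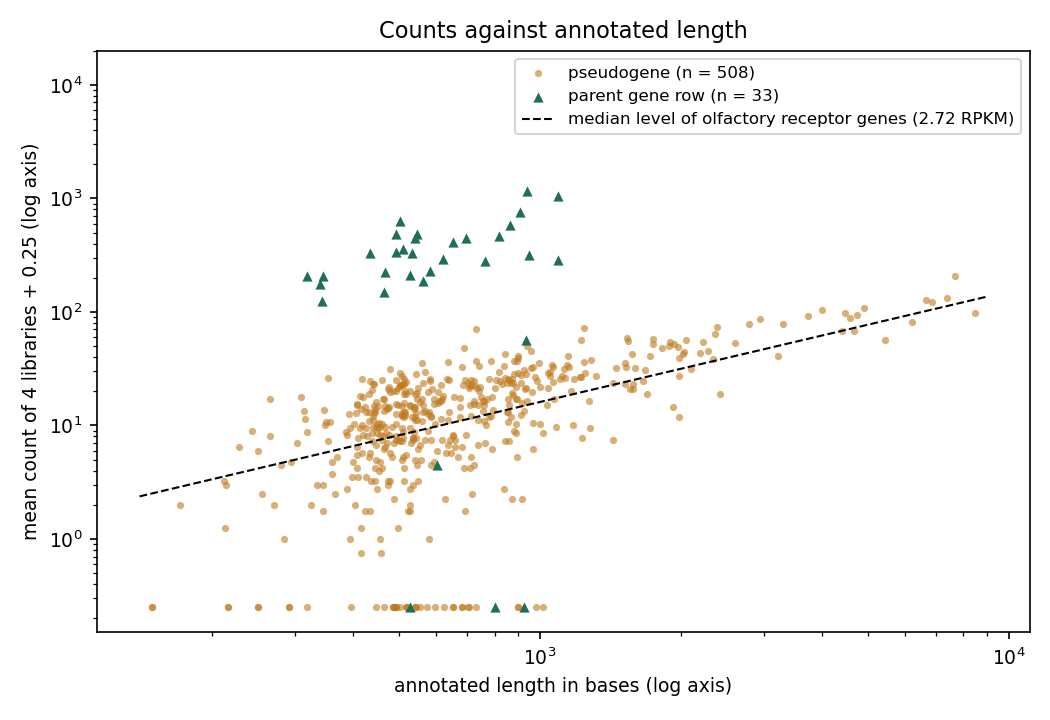
Mean count over the 4 libraries plus 0.25 against annotated length in bases, both on log axes, for the 508 pseudogenes (circles) and 33 parent rows (triangles). The dashed line is the count that the median level of olfactory receptor genes, 2.72 RPKM, gives at each length: the long pseudogenes lie near it, and most parents lie far above it.

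Per length, 11 pseudogenes averaged more than 10 RPKM, and 1 of them was above 8 RPKM in every library. It was Rps2-ps1, singled out after its values were seen, with 15.7 and 26.5 RPKM in MSCATV-Exo, against 17.2 and 10.5 RPKM in MSC-Exo. In counts this was 68 and 108 in MSCATV-Exo, against 67 and 41 in MSC-Exo. Rps2-ps1 overlaps RT1-S2, a protein-coding gene of the rat major histocompatibility complex that had 567 and 505 counts in MSCATV-Exo, against 376 and 340 in MSC-Exo. The part of those reads in the pseudogene's count was not tested.

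In the mean of the 4 libraries, cytosolic copies stood far below a measured parent. This was followed over the 433 cytosolic pseudogenes whose parent averaged more than 5 RPKM. In these means none reached the parent, the median level was 2.93% of the parent's, 18 stood above 10%, and the highest was 28.4%. That highest one, LOC679734, copies Rps4y2, the lowest expressed of the tested cytosolic parents. Rps4y2 was at 0.180 and 16.1 RPKM in MSCATV-Exo, against 10.4 and 17.2 RPKM in MSC-Exo. LOC679734 was at 3.78 and 4.48 RPKM in MSCATV-Exo, against 0.494 and 3.70 RPKM in MSC-Exo. It thus stood above Rps4y2 in MSCATV-Exo replicate 1. The Rps4y2 row is annotated on chromosome 4 as a single block of 934 bases, as most of the pseudogenes are. Whether that row is itself a copy was not tested. LOC361908, an Rps10 copy at 19.4% of its parent, had 7.82 and 13.4 RPKM in MSCATV-Exo, against 13.4 and 11.0 RPKM in MSC-Exo. The groups overlapped for LOC361908. The mitochondrial parents were themselves low, at 2.55 to 13.1 RPKM, and 3 of the 14 mitochondrial copies averaged above their parent, named here after their values were seen. They were LOC103691160 at 8.36 RPKM beside 5.04 for Mrps18c, LOC103691792 at 7.17 beside 5.94 for Mrps21, and LOC503019 at 6.55 beside 6.12 for Mrps10.

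Each tested cytosolic parent stood above the median pseudogene of its family. Over the 29 families with such a parent, the parent averaged 11.0 (Rps4y2) to 225 RPKM, and the family's median pseudogene 1.01 to 7.18 RPKM. The next lowest parent after Rps4y2 was Rps27a, at 47.4 RPKM. The Spearman correlation between the levels of parent and median pseudogene was 0.35. Between the number of copies and the parent's level it was 0.40 (n = 29 families, which share their libraries). Among families of at least 5 copies, a single copy held 7.91% to 50.3% of the family's pseudogene reads. The Rps2 family held most pseudogene reads, 9.60% of the total, and no single copy in it had more than 7.91% of them.

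Replicate libraries shared little of the order of the pseudogenes. Across the 508 pseudogenes the Spearman correlation of RPKM was 0.27 between the MSCATV-Exo libraries and 0.33 between the MSC-Exo libraries, and it was 0.23 to 0.32 between libraries of different groups. Across the 29 tested parents it was 0.85 and 0.88 within those groups and 0.83 to 0.89 between them. Parent rows at or near 0 were left out of this, while the pseudogenes without any read, 40 of 508, stayed in. Most parents also had higher counts, and the part of depth in this contrast was not tested. A pseudogene was at 0 in 1 library and at 10 or more counts in the other library of its group in 77 cases (15.2%) in MSCATV-Exo and in 53 (10.4%) in MSC-Exo. That pattern held for 17.8% of olfactory receptor genes in MSCATV-Exo and 10.5% in MSC-Exo, and for 0 parents.

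**Figure D3:**
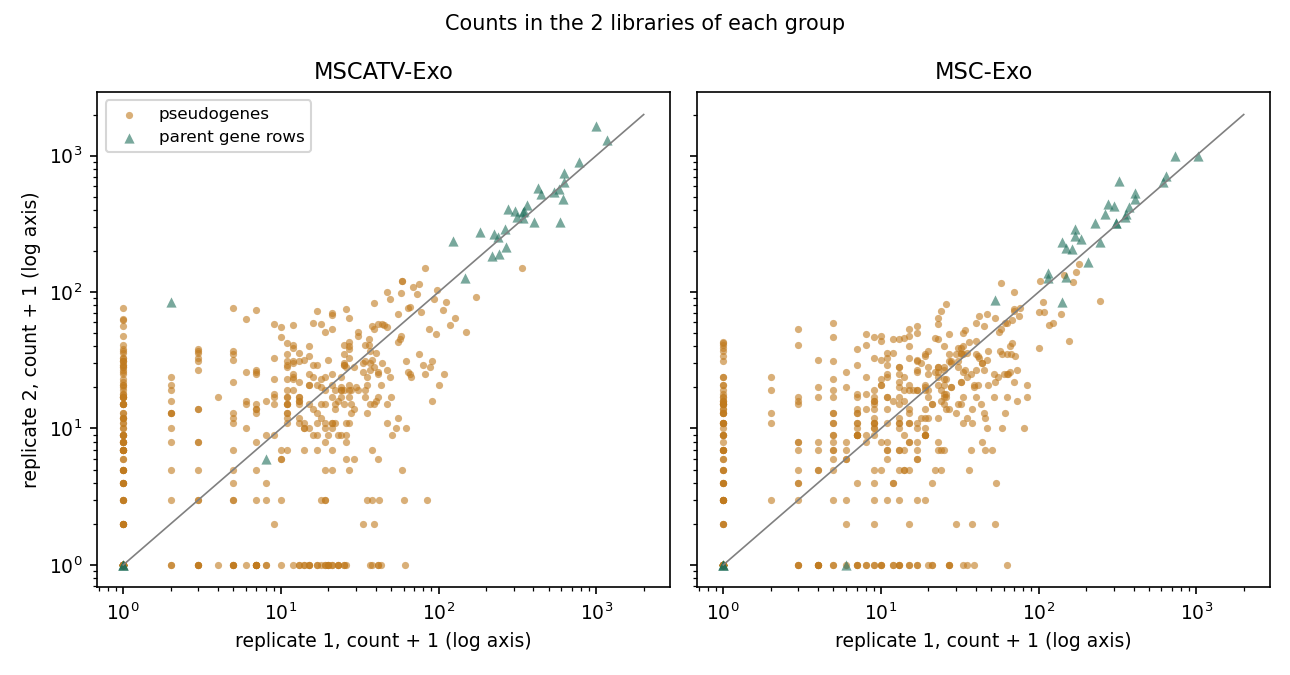
Count plus 1 in replicate 2 against replicate 1, on log axes, for MSCATV-Exo (left) and MSC-Exo (right). Circles are the 508 pseudogenes and triangles the 33 parent rows; the line marks equal counts. Most parents follow the line, while pseudogenes scatter, and those along the lower and left edges were at 0 in 1 library.

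In CPM the summed level of the pseudogenes was lower in both MSCATV-Exo libraries, but with another scaling the groups overlapped. They held 9055 and 9339 counts in MSCATV-Exo, against 9890 and 9115 in MSC-Exo, or 1523 and 1668 CPM, against 1849 and 1702 CPM. The mean was 1595 ± 103 CPM in MSCATV-Exo and 1775 ± 104 CPM in MSC-Exo (SD, n = 2 each), a ratio of 0.899. In CPM the libraries of the groups did not overlap, and the exact two-sided permutation test gave p = 0.333, the smallest that 2 against 2 libraries allow. With TMM factors, which set libraries on a common scale, the sums were 1649 and 1655 CPM in MSCATV-Exo, against 1769 and 1654 CPM in MSC-Exo, so the separation was lost. The means were then 1652 ± 4.25 CPM in MSCATV-Exo and 1712 ± 81.4 CPM in MSC-Exo (ratio 0.965, exact permutation p = 0.667). The pseudogenes of large-subunit proteins had a ratio of 0.916, at 3245 ± 57.7 CPM in MSCATV-Exo and 3541 ± 313 CPM in MSC-Exo. The 14 mitochondrial copies summed to 130 and 214 counts in MSCATV-Exo, against 287 and 190 in MSC-Exo, with overlapping groups.

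The parent genes lay the other way. Their rows summed to 2014 and 2391 CPM in MSCATV-Exo, against 1663 and 2001 CPM in MSC-Exo, or 2203 ± 267 CPM in MSCATV-Exo and 1832 ± 238 CPM in MSC-Exo (ratio 1.20, exact permutation p = 0.333). The cytosolic pseudogenes therefore held 42.7% (95% Clopper-Pearson interval 42.0 to 43.4) and 40.5% (39.9 to 41.2) of the reads of pseudogenes and parents together in MSCATV-Exo, against 51.9% (51.2 to 52.6) and 45.4% (44.7 to 46.1) in MSC-Exo. These intervals cover counting error only, and within each group those of the 2 libraries did not overlap. The mean shares were 41.6% ± 1.53 in MSCATV-Exo and 48.7% ± 4.56 in MSC-Exo, a difference of -7.06 percentage points (exact permutation p = 0.333). The difference was -3.83 points without MSC-Exo replicate 1, the library with the highest share.

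Parent by parent, 27 of 29 tested parents had a positive log2 fold change, and its median over the 29 was 0.39. In 15 of them (51.7%) both MSCATV-Exo libraries lay above both MSC-Exo libraries and in 0 below, beside 16.1% of all 33480 tested genes above and 17.4% below. edgeR called 0 parents at an adjusted p under 0.05, and 4 had an unadjusted p under 0.05, among them Rps24, Rps10 and Rpsa. DESeq2 called 1, Rps24, whose human gene is among those mutated in Diamond-Blackfan anaemia, with 364 and 431 counts in MSCATV-Exo, against 206 and 166 in MSC-Exo (edgeR log2 fold change 1.09 ± 0.29, DESeq2 adjusted p = 0.0136). Over all genes edgeR called 0% and DESeq2 0.329% (106 of 32181). Without MSC-Exo replicate 1 the parents' median was 0.20. Without MSCATV-Exo replicate 2 edgeR called Rps4y2 as lower; it had 1 and 84 counts in MSCATV-Exo, against 52 and 86 in MSC-Exo.

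Summing the copies of each cytosolic parent gave 32 pseudogene families, of which 14 had positive and 18 negative log2 fold changes, with a median of -0.08. edgeR called 0 of the 32 family sums, with 0 at an unadjusted p under 0.05, and DESeq2 also called 0 (background for edgeR 0% of 33193 rows). The smallest p, 0.0804 unadjusted, was that of Rps27a, which encodes a fusion of ubiquitin with a ribosomal protein. Its 19 copies summed to 94 and 102 counts in MSCATV-Exo, against 168 and 156 in MSC-Exo, a log2 fold change of -0.73 ± 0.38, while the parent's was 0.50 ± 0.30. The 8 mitochondrial sums that could be tested were higher in 2 and lower in 6, with 0 called. With the parent added, 23 of the 32 cytosolic families were higher with a median of 0.18, and edgeR called 0 (1 at an unadjusted p under 0.05, that of Rps24, 0.0117; background 0% of 33157 rows).

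In 25 of the 29 families the parent's log2 fold change lay above that of its summed pseudogenes. Rps13, Rps27 and Rps4y2 were among the exceptions. The pseudogenes' share of family reads was lower in both MSCATV-Exo libraries than in both MSC-Exo libraries in 12 families. It was higher in 1 family, that of Rps4y2, and overlapping in 16. Parent and pseudogene counts come from the same libraries and from reads that may match either, so the families are not independent. No background share over other gene families was computed, and 27 of the 29 parents were themselves higher. Nothing particular to the copies is therefore read from these counts of families.

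For Rps10, 26 copies summed to 527 and 683 counts in MSCATV-Exo, against 704 and 641 in MSC-Exo, and the parent had 224 and 267, against 113 and 137. The copies' sums overlapped between the groups and the parent's counts did not. For Rps24, 14 copies summed to 202 and 262 counts in MSCATV-Exo, against 211 and 127 in MSC-Exo. In 3 families, Rps10 and Rps25 among them, the copies together outnumbered the parent in every library, and in 16 families they were below it in every library. Across the 29 families the Spearman correlation between the log2 fold changes of parent and summed copies was 0.03.

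**Figure D4:**
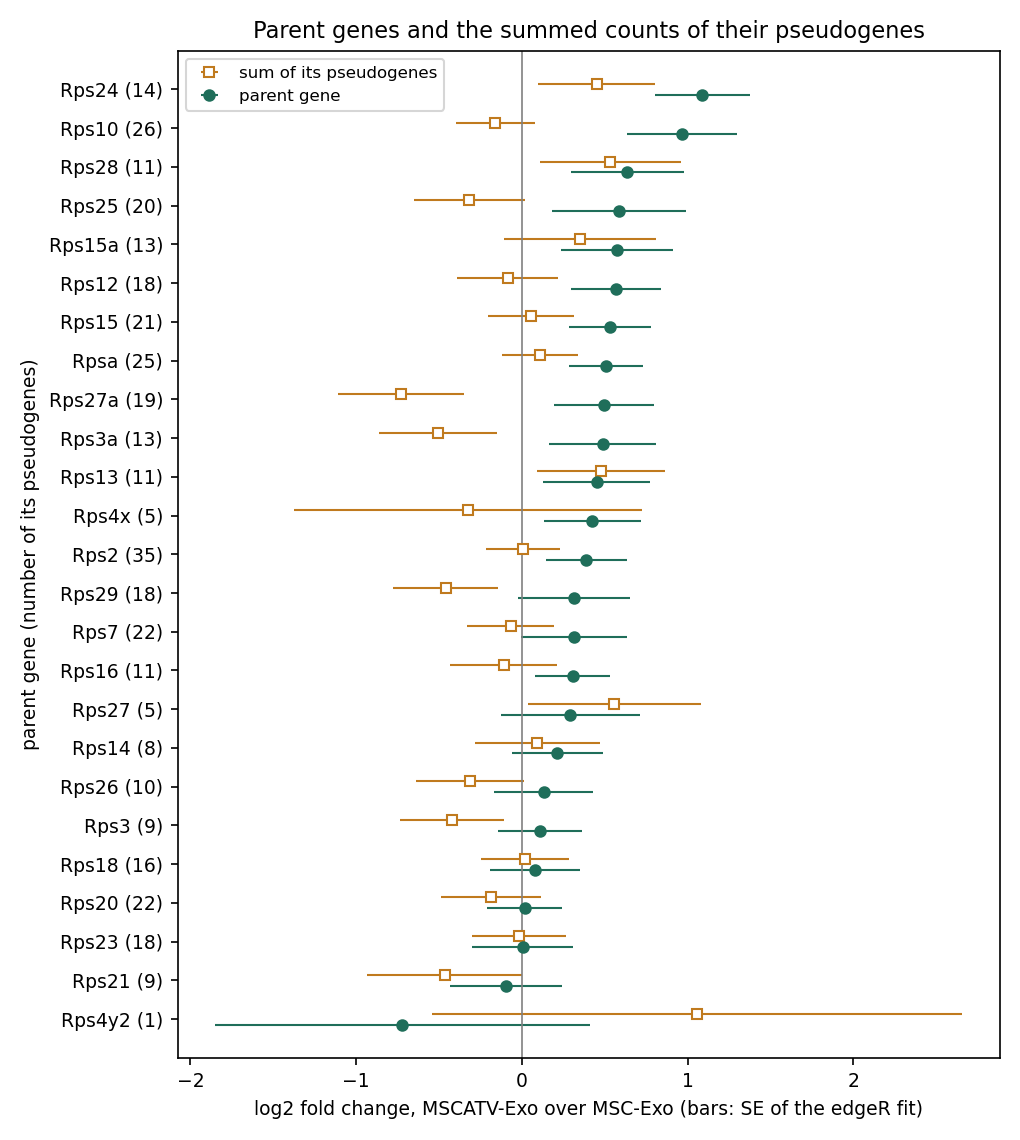
Log2 fold change, MSCATV-Exo over MSC-Exo, of the summed pseudogene counts (squares) and of the parent gene (circles) for 25 of the 29 families, with the number of pseudogenes in parentheses; bars are SEs of the edgeR fits. Among those drawn, the circles lie right of 0 in 23 families, the squares in 11, and the circle lies right of the square in 22.

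For 3 proteins the reads lay on the copies while the gene itself was listed at or near 0. Rps6 encodes the protein that S6 kinases phosphorylate, and it had 0 counts in all 4 libraries. Its 23 pseudogenes summed to 307 and 390 counts in MSCATV-Exo, against 275 and 288 in MSC-Exo. A protein-coding gene described as like S6, LOC100911372, lies near it on chromosome 5 and had 38 and 9 counts in MSCATV-Exo, against 2 and 22 in MSC-Exo. Rps9 was at 0 in all libraries, as was LOC103689992, a second entry for the protein with the same length of 926 bases. The 15 pseudogenes of Rps9 summed to 189 and 297 counts in MSCATV-Exo, against 345 and 344 in MSC-Exo.

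Rps19, mutated in human Diamond-Blackfan anaemia, had 2 rows, on chromosomes 9 and 1. The first was at 0 in all libraries, and the second had 7 and 5 counts in MSCATV-Exo, against 5 and 0 in MSC-Exo. The 23 copies of Rps19 summed to 689 and 493 counts in MSCATV-Exo, against 459 and 377 in MSC-Exo, and LOC108349053 alone held 40.8% of them. Every cytosolic ribosome holds these proteins, so for Rps6, Rps9 and Rps19 only the listed counts are given, and no level is read from them. An alternative chosen after seeing the data left these 3 families out, and the share of pseudogene reads then differed by -7.45 points.

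Member by member, 327 of the 508 pseudogenes had enough counts to be tested, and 141 of the other 181 had some reads. Of those tested, 157 were higher and 170 lower in MSCATV-Exo. Their log2 fold changes had a median of -0.05, beside -0.01 over all 33480 tested genes. edgeR called 0 pseudogenes at an adjusted p under 0.05, as it called 0% of all genes. At an unadjusted p under 0.05 there were 23 (7.03%), 8 higher and 15 lower, beside 3.69% of all tested genes. Both MSCATV-Exo libraries lay above both MSC-Exo libraries in 45 (13.8%, background 16.1%) and below in 65 (19.9%, background 17.4%). This median turned to 0.03 when MSC-Exo replicate 1 was left out and to 0.13 when MSC-Exo replicate 2 was, where all tested genes had medians of 0.02 and 0.04. Over the tested pseudogenes that overlap no other gene it was 0.046.

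DESeq2 called 2 pseudogenes, where it called 0.329% of all genes. LOC108351319 copies Mrps21, a protein of the mitochondrial ribosome, and lies in 1271 annotated bases at chr6:27856408-27857957 (rn6, minus strand). It had 24 and 40 counts in MSCATV-Exo, against 0 and 0 in MSC-Exo (DESeq2 adjusted p = 0.0396, edgeR unadjusted p = 0.00473). Against the floor of 3 counts over the group this is 19.8-fold higher. That floor covers counting error in the zeros only, not the spread between libraries. LOC108351319 overlaps Asxl2 on the other strand, a chromatin gene that had 282 and 251 counts in MSCATV-Exo, against 261 and 249 in MSC-Exo.

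RGD1562835 copies Rps26, a protein at the exit of the messenger RNA channel, and lies at chr8:50285850-50286354 (rn6, plus strand). It had 0 and 0 counts in MSCATV-Exo, against 65 and 25 in MSC-Exo, and was 32.4-fold lower against the same floor (DESeq2 adjusted p = 0.0109, edgeR unadjusted p = 0.00150). Its overlapping gene Pafah1b2, on the other strand, had 31 and 148 counts in MSCATV-Exo, against 65 and 90 in MSC-Exo. The parent Rps26 had 305 and 394 counts in MSCATV-Exo, against 261 and 373 in MSC-Exo, and its 10 copies summed to 163 and 155, against 196 and 198.

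Without MSCATV-Exo replicate 2, edgeR called 4 pseudogenes, all lower, where it called 0.472% of all genes. They included RGD1562835 and copies of Rps3 (LOC684977) and Rps2 (RGD1560789). Both of these copies were at 0 counts in MSCATV-Exo replicate 1, and the library left out held 32 of LOC684977 and 9 of RGD1560789. MSC-Exo held 65 and 39 counts of LOC684977, and 80 and 9 of RGD1560789.

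Among the other tested pseudogenes with non-overlapping groups and the smallest p, LOC365595, a copy of Rps15, had 38 and 53 counts in MSCATV-Exo, against 4 and 2 in MSC-Exo (log2 fold change 3.86 ± 1.22, edgeR unadjusted p = 0.00926). LOC108348448, a copy of Rps15a, had 79 and 28 counts in MSCATV-Exo, against 0 and 8 in MSC-Exo. LOC363622, a copy of Rps2, had 81 and 24, against 8 and 10. Lower in MSCATV-Exo were LOC364750, a copy of Rps14, with 0 and 1 counts, against 54 and 23 in MSC-Exo, and Rps27a-ps2, with 0 and 1, against 42 and 14. LOC364524, a copy of Rpsa, which is also known as a laminin receptor, had 2 and 13 counts in MSCATV-Exo, against 57 and 53 in MSC-Exo. None of these passed either tool's adjusted threshold, and in 4 of these 6 the libraries of the higher group differed by a factor of more than 2.

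Counts of 0 in both libraries of 1 group beside 10 or more in each of the other occurred in 13 pseudogenes. In 4 (0.787%) the zeros were in MSC-Exo, beside 0.14% of all genes and 0.252% of olfactory receptor genes. In 9 (1.77%) they were in MSCATV-Exo, beside 0.347% of all genes and 1.18% of olfactory receptor genes. For pseudogenes of large-subunit proteins the shares were 0.111% and 0.446%. Those with zeros in MSC-Exo included LOC108351319, LOC100363142 (a copy of Rps26) and LOC688994 (Rps15), at least 8.65-fold to 19.8-fold higher in MSCATV-Exo.

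Those with zeros in MSCATV-Exo included RGD1562835, LOC103691683 (a copy of Rps25), RGD1559708 (Rps10), LOC108348787 (Rpsa), LOC108351989 (Rps29), LOC108350154 (Rps26), LOC682240 (Rps3a) and Rps27a-ps7. Against the same floor these were 9.35-fold to 32.4-fold lower in MSCATV-Exo. Neither range of fold values covers the spread between libraries. LOC103691683 had 39 and 16 counts in MSC-Exo, and RGD1559708 had 22 and 27. Copies of Rps26 stood on both sides, with LOC100363142 at 24 and 18 counts in MSCATV-Exo, against 0 and 0 in MSC-Exo. No parent showed this pattern.

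**Figure D5:**
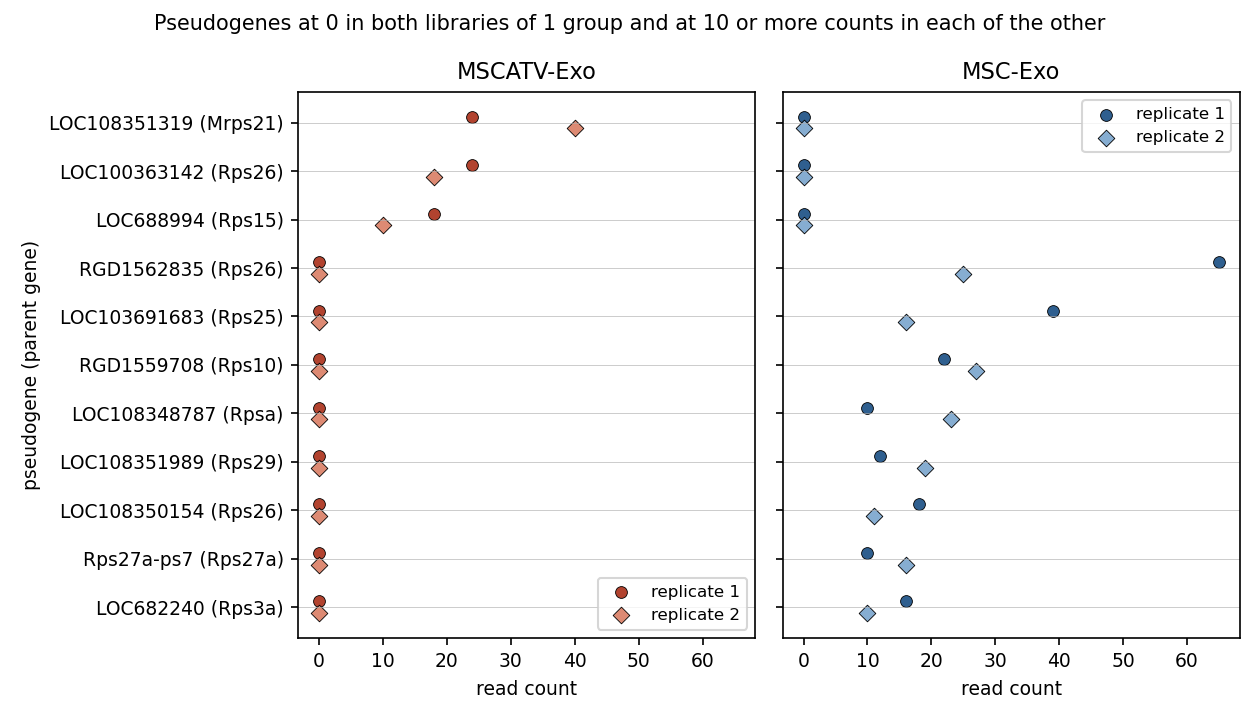
Read counts per library of 11 of the 13 pseudogenes at 0 in both libraries of 1 group and at 10 or more counts in each library of the other, with MSCATV-Exo left and MSC-Exo right (circles: replicate 1; diamonds: replicate 2; parent gene in parentheses). The top 3 had reads in MSCATV-Exo alone and the lower 8 in MSC-Exo alone, and the highest count was 65.

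The authors' deposited table of the comparison lists 437 of the pseudogenes. Of these, 163 (37.3%) have a q-value under 0.05 there, 62 higher and 101 lower in MSCATV-Exo, where 34.3% of all 38021 listed genes do. In the counts per library, which that table does not hold, the groups overlapped for 54 of these 163 pseudogenes. The same share was not computed over all genes called there, so nothing particular to the pseudogenes is read from it.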

How the data were processed

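The 4 exosome RNA libraries fall into 2 groups of 2; the labels describe both ultracentrifugation and a reagent for isolating the exosomes. The members and lists here were chosen with earlier results of these data known. The submitters' processing notes name TopHat2 and the rat build rn6 (Rnor_6.0); a TopHat2 version, the counter and the annotation release are not given in the sources used here. The authors deposited raw read counts and RPKM values per gene, and RPKM recomputed from counts and lengths used the sum of the gene counts. The authors' deposited comparison gives mean RPKM, a log2 ratio without pseudocount, a p-value and a q-value; its test is not stated. The non-coding transcript tables held no member and were not used, nor were the reference tables, which are of mouse.

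Counts of all genes were fitted in edgeR 4.0.16 (R 4.3.3) with filterByExpr, TMM scaling and its two-sided quasi-likelihood test, called at a Benjamini-Hochberg adjusted p under 0.05. The same was done with copies summed by parent, with and without the parent. The biological coefficient of variation was 0.559. On simulated data the procedure was checked only for the size of its fold changes, and its power to call them is not given here. A positive log2 fold change means higher in MSCATV-Exo, and its error is the SE of the fit. CPM use the gene-count total unless TMM is named, and non-overlap of groups was judged on TMM-scaled counts. Parents were assigned from the protein named in the description; Rps19 has 2 rows, so 32 parents have 33. Olfactory receptor genes were the protein-coding genes whose symbol starts with Olr and a digit. Named by rule were the 10 members of highest mean CPM, the 6 of smallest edgeR p in each direction among those with non-overlapping groups, those DESeq2 called, those at 0 in 1 group and at 10 or more counts in each library of the other, and the 5 of highest RPKM relative to the parent; some are given only within counts or ranges.

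Other settings were DESeq2 1.42.0, RLE scaling, no scaling factor, no filter, a mean of 1 CPM or more, a block for the replicate number, leaving out each library, and limma 3.58.1 on log2(RPKM + 1) and log2(RPKM + 0.1) for genes averaging at least 1 RPKM. Chosen after seeing the data were 2 more, on the families of Rps6, Rps9 and Rps19 and on members above 8.17 RPKM. Results of some families and their copies are counted in totals but not reported here by name or drawn by family.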

Additional observations from a re-analysis of the deposited data

How the results depend on the processing

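With 2 libraries per group no exact permutation test can pass. In the mean of the 4 libraries the median pseudogene, at 3.62 RPKM, lies between the medians of olfactory receptor genes (2.72) and of all genes (4.06). The number of members called was 2 with DESeq2, 4 without MSCATV-Exo replicate 2 and 0 under the remaining alternatives, so leaving out 1 library gave 0 to 4. Called parents numbered 1 with DESeq2 and 0 to 1 with 1 library left out, and family sums 0 under each alternative run for them, which left out limma. Without a scaling factor the median over all genes moved to -0.11 and that over the members to -0.15 (log2). The members' median was -0.38 and -0.20 with limma at pseudocounts of 0.1 and 1 (all genes -0.15 and -0.11), and 0.046 for members that overlap no other gene. Leaving out each library gave -0.25 to 0.13, above 0 without MSC-Exo replicate 1 (0.03; all genes 0.02) and without MSC-Exo replicate 2 (0.13; all genes 0.04). Over members above 8.17 RPKM, an alternative chosen after seeing the data, it was -0.08. The parents' median stayed above 0 under every alternative, at 0.20 to 0.47 with 1 library left out. The ratio of summed members was 0.891 to 0.965 under other scalings and subsets, and 0.858 to 0.940 with 1 library left out. The difference in pseudogene share stayed below 0, at -5.74 to -7.45 points in other subsets and -3.83 to -10.3 points with 1 library left out. Same-numbered libraries did not deviate together over 33480 genes (correlation -0.000516). This value cannot exclude a shared origin of such libraries, which the labels do not give. With the number as a replicate block, edgeR called 4 of the 33480 genes, but 0 members, 0 parents and 0 family sums. The members' median was then -0.15. DESeq2 called LOC108351319 (log2 fold change 7.44), RGD1562835 (-7.93) and Rps24 (1.09), and edgeR called RGD1562835 without MSCATV-Exo replicate 2 (-8.48).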

Other observations

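Pseudogenes of small-subunit ribosomal proteins were annotated on 21 chromosomes. Chromosome 1 held most, with 45, and chromosome 5 held 40. Relative to the genes listed on each chromosome they were most frequent on chromosomes 19 (2.14% of genes) and 18 (2.08%) and least frequent on chromosome 10 (0.673%). The 27 copies on the X chromosome had a median of 1.82 RPKM, below the 3.62 RPKM of all 508; both medians are over each copy's mean of the 4 libraries, and the difference was not tested. The 76 copies that overlap a gene on the same strand had a median of 3.51 RPKM, and the 364 that overlap no other gene had 3.78 RPKM.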
